A study of Rattus norvegicus with 6 samples.

Results

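The transcripts described here are those of 10 neuropeptide genes: Crh, its receptor Crhr1 and its binding protein Crhbp, the peptide precursors Npy, Cck, Tac1, Penk and Pdyn, and the secretory granule proteins Vgf and Scg2. They were taken by gene symbol from a table of 17066 genes, and each symbol was found once. The set was chosen on the FPKM values of Crh, which had been seen to lie higher on overexpression and lower on knockdown of cyclin Y in these same libraries, so the Crh values are given as a description with no test, and tests are given for the other 9 genes. All 10 passed the filter, which asked for 2 libraries with an FPKM of 1 or above, as did 10188 genes in all. FPKM, fragments per kilobase of transcript scaled to the mapped fragments of the library, accounts for transcript length, so that levels of different genes can be set side by side.

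The cells were primary hippocampal neurons of embryonic day 18 (E18) Sprague-Dawley rats. They were infected with lentivirus at 5 or 6 days in vitro (DIV) and harvested at DIV14. The 3 groups of 2 libraries each received virus for EGFP alone, called the controls here, for CCNY-WT-EGFP, which overexpresses cyclin Y, or for CCNY-shRNA-EGFP, which knocks it down. All groups therefore carried lentivirus and EGFP, no uninfected culture or inactive shRNA was among the samples, and infected and uninfected cells of a dish were measured together. The labels do not say whether the libraries of a group came from separate cultures, so the p-values measure only the spread between these libraries, which may be technical. Ccny itself, the targeted gene, was at FPKM 43.1 and 42.3 in the controls, 108 and 109 with overexpression, and 5.98 and 6.19 with knockdown.

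Neuropeptides are made as longer precursors, cut by convertases inside dense-core vesicles, and released when a neuron fires strongly. In the hippocampus corticotropin-releasing hormone (CRH) comes mainly from inhibitory interneurons and acts on CRHR1, a receptor that signals through Gs, adenylyl cyclase and protein kinase A to the transcription factor CREB, while CRH-binding protein holds the peptide away from its receptor. Neuropeptide Y, cholecystokinin and somatostatin mark partly overlapping interneuron populations, and dynorphin is known from dentate granule cells.

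Of the 10 genes, 7 have a promoter window in the RefSeq table (build GRCr8, from 250 bases before to 50 bases after the start site), and Crh, Cck and Penk are not among them. The CREB response element TGACGTCA was searched in these windows because CREB is a late step of the CRHR1 pathway. It was found in the windows of Vgf and Scg2, both known as cAMP-responsive granule genes, and in 1.83% of the 33469 promoters of the table. A stretch of 30 bases around each match, at chr12:25277092-25277121 for Vgf and at chr9:88256971-88257000 for Scg2, both on the minus strand, is shown 5′ to 3′ with the element in capitals, since these are the members that carry the full element.
Vgf: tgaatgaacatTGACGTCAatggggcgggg
Scg2: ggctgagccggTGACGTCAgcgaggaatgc
The element begins 90 bases before the start site in Vgf and 123 bases before it in Scg2. Its first letters, TGACG, which lie within the full element on both strands, were also found once in the Crhbp window and once in the Tac1 window, and on either strand in 21.2% of all promoters. The windows of Crhr1, Npy and Pdyn held neither. These are matches of letters and not measured binding sites.

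The members covered a wide range of levels. In the EGFP libraries the order by mean FPKM was Vgf at 523 ± 18.5 (SD, n = 2), Npy at 427 ± 33.7, Scg2 at 387 ± 20.0, Cck at 289 ± 16.3, Crhbp at 57.7 ± 1.82, Tac1 at 24.6 ± 2.28, Penk at 18.4 ± 0.652, Crhr1 at 5.87 ± 1.146, Crh at 1.43 ± 0.136 and Pdyn at 0.734 ± 0.407. No 2 neighbours in this order overlapped between the EGFP libraries. Vgf, Npy, Scg2 and Cck together made up 93.0% to 94.4% of the summed FPKM of the 10 genes in each library, and Npy and Cck made up 93.3% to 94.1% of that of the 6 peptide precursors Crh, Npy, Cck, Tac1, Penk and Pdyn. The order changed in CCNY-shRNA at its lower end, where both Pdyn values lay above both Crh values, whereas Crh lay above Pdyn in every EGFP and CCNY-WT library. Npy and Scg2, and Tac1 and Penk, overlapped in CCNY-shRNA.

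**Figure D1:**
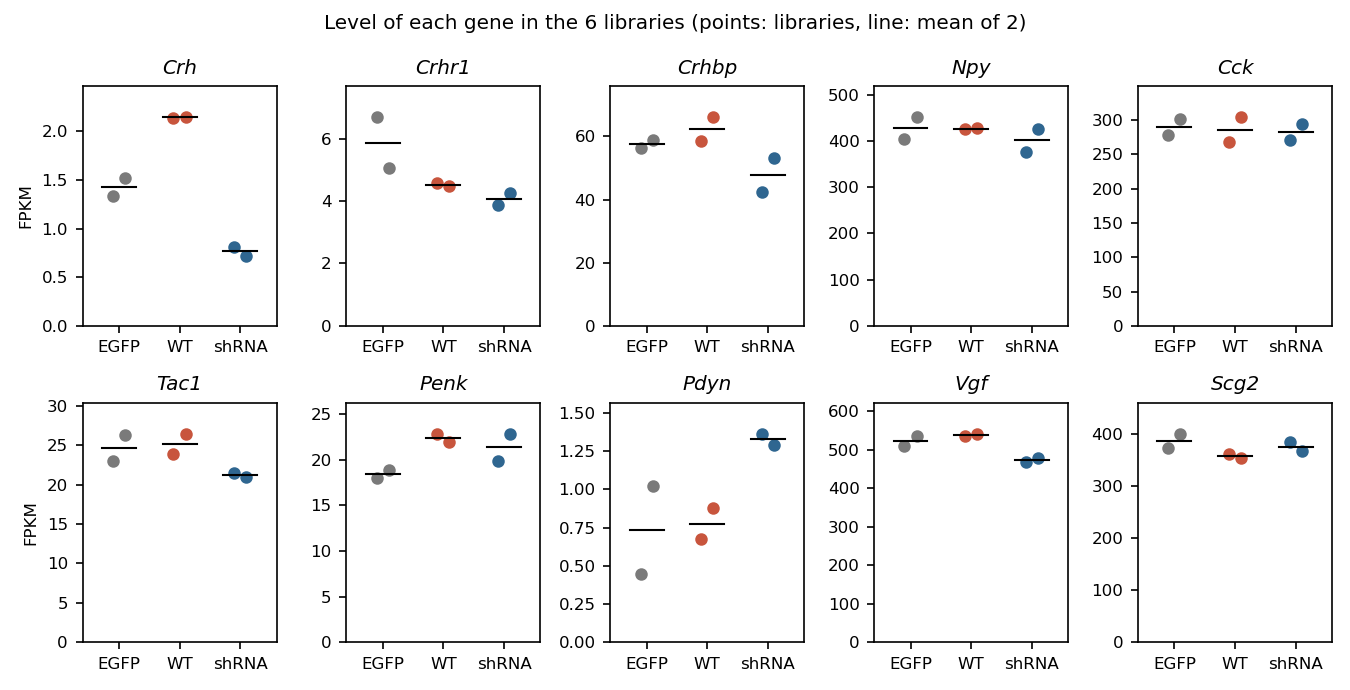
FPKM of each of the 10 genes (vertical axes, linear and starting at 0) in the EGFP, CCNY-WT and CCNY-shRNA libraries; points are libraries and lines the mean of 2. Crh runs from 0.722 to 2.15 with the 3 groups apart, Crhr1 is highest in both EGFP libraries, Penk is lowest there, and Npy and Cck overlap between all groups.

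Crh, the precursor of the stress peptide CRH, was at FPKM 1.33 and 1.53 in the controls, 2.14 and 2.15 with overexpression, and 0.815 and 0.722 with knockdown. The 3 groups did not overlap, which is the pattern the gene was chosen for. The mean in CCNY-WT was 1.499 times the EGFP mean, and the EGFP mean was 1.86 times the CCNY-shRNA mean. On the log2 scale with values under 1 set to 1, the differences from EGFP were 0.59 in CCNY-WT and -0.51 in CCNY-shRNA. Since both CCNY-shRNA values lie under 1, this floor shortens the second difference, which was -0.90 without it.

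These levels rest on few fragments. FPKM values of weakly expressed genes step by what 1 fragment is worth, and from these steps the smallest whole numbers that gave the Crh values were 8 and 10 fragments in the controls, 17 and 12 with overexpression, and 4 and 5 with knockdown. The largest distance from a whole number was 0.0222, and the true numbers may be a common multiple of these. Summed over the libraries of a group they were 18, 29 and 9, and after division by relative depth the ratio of CCNY-WT to EGFP was 1.49, that of CCNY-shRNA to EGFP 0.530, and that of CCNY-shRNA to CCNY-WT 0.356. Like the levels, these ratios carry no test.

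**Figure D2:**
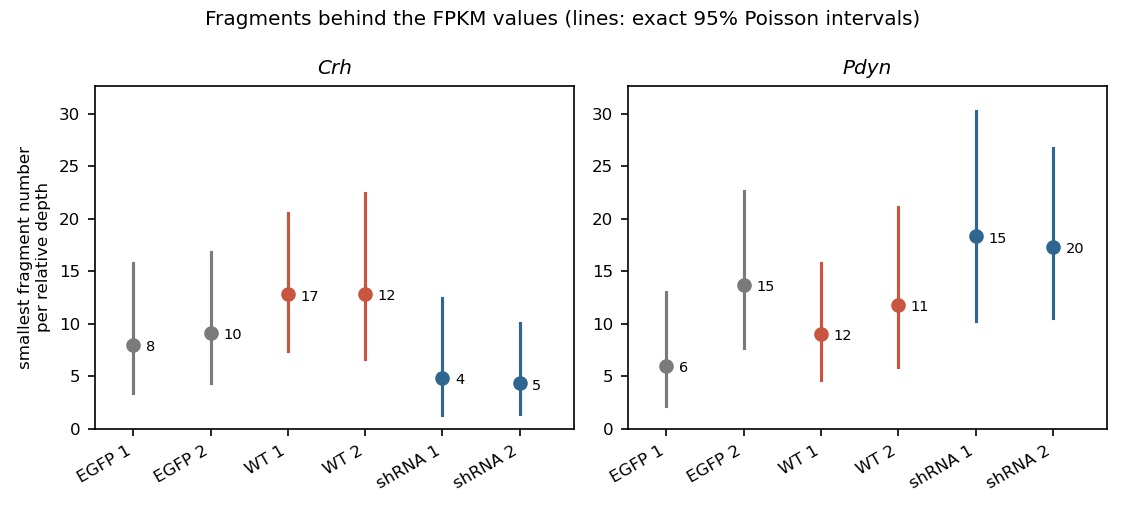
Smallest whole fragment numbers behind the FPKM values of Crh and Pdyn, divided by the depth of each library relative to EGFP replicate 1 (vertical axis). Numbers beside the points are the fragments. Lines are 95% Poisson intervals that take these smallest numbers as the true ones and cover counting error only. If the true numbers are a common multiple, the intervals would be narrower, so they are a description and no test. For Crh the numbers run from 4 to 17 and the intervals of single libraries are wide, and for Pdyn they run from 6 to 20 with EGFP replicate 1 lowest.

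Crhr1, the main CRH receptor of the forebrain, was at FPKM 6.68 and 5.06 in the controls, 4.57 and 4.49 with overexpression, and 3.88 and 4.25 with knockdown. Each EGFP library lay above all libraries of the other groups, so Crhr1 was lower than the control with overexpression and with knockdown, unlike Crh. The log2 difference from EGFP was -0.36 in CCNY-WT (95% interval -0.77 to 0.05; limma adjusted p = 0.761) and -0.52 in CCNY-shRNA (-0.93 to -0.11; adjusted p = 0.179), where p-values were adjusted over all genes tested by Benjamini-Hochberg. Neither passed the adjusted threshold of 0.05. EGFP replicate 1 was the farthest from the rest, and without it the CCNY-WT difference was at its smallest, -0.16, and the CCNY-shRNA difference was -0.32.

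Crhbp, which binds and sequesters CRH and is typical of interneurons, was far more abundant than Crh or Crhr1, at FPKM 56.4 and 59.0 in the controls, 58.7 and 66.0 with overexpression, and 42.5 and 53.0 with knockdown. Both CCNY-shRNA libraries lay below all others, while EGFP and CCNY-WT overlapped. The log2 difference from EGFP was 0.11 in CCNY-WT (adjusted p = 0.882) and -0.28 in CCNY-shRNA (-0.53 to -0.03; adjusted p = 0.216), and that of CCNY-shRNA from CCNY-WT was -0.39 (-0.64 to -0.14; adjusted p = 0.241). The CCNY-shRNA libraries differed, and the difference from EGFP was -0.12 without CCNY-shRNA replicate 1 and -0.44 without replicate 2. The FPKM of the binding protein was 42.3 and 38.6 times that of its ligand in EGFP, 27.4 and 30.8 times in CCNY-WT, and 52.1 and 73.4 times in CCNY-shRNA. The ratio follows the values that chose Crh and is given as a description. In such bulk libraries fewer cells of a type and less RNA per cell cannot be told apart.

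Of the other CRH family genes, Ucn2 and Ucn3, which code for urocortins, were listed at 0 in all libraries. Crhr2, the second receptor, was at 0 in both EGFP libraries and between 0.142 and 0.264 in the other 4, a smallest fragment number of at most 3. Ucn was at 0 in 3 libraries and at a smallest fragment number of 1 in the others. None of these 4 genes reached the filter, so no comparison was made for them.

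Npy, a peptide of several interneuron classes, was at FPKM 403 and 451 in the controls, 426 and 428 with overexpression, and 377 and 427 with knockdown. The groups overlapped, with a log2 difference from EGFP in CCNY-WT between -0.18 and 0.19 (95% interval; adjusted p = 1) and of -0.09 in CCNY-shRNA (-0.28 to 0.10; adjusted p = 0.592). Cck, the cholecystokinin precursor, was at 278 and 301 in the controls, 267 and 304 with overexpression, and 271 and 294 with knockdown. Its groups also overlapped, with log2 differences of -0.02 (-0.21 to 0.17; adjusted p = 0.973) and -0.03 (-0.22 to 0.15; adjusted p = 0.868). For these abundant precursors the intervals bound a difference in either condition to under 0.28 on the log2 scale.

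Tac1, the precursor of substance P and neurokinin A, was at FPKM 23.0 and 26.3 in the controls, 23.9 and 26.4 with overexpression, and 21.4 and 20.9 with knockdown. The CCNY-shRNA libraries lay below the other 4, and EGFP and CCNY-WT overlapped. The log2 difference from EGFP was 0.03 in CCNY-WT (adjusted p = 0.968) and -0.21 in CCNY-shRNA (-0.43 to 0.00; adjusted p = 0.276).

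Penk and Pdyn code for opioid peptides. Penk, the enkephalin precursor, was at 17.95 and 18.9 in the controls, 22.8 and 22.0 with overexpression, and 19.8 and 22.8 with knockdown. Both EGFP libraries lay below the other 4, so Penk was higher in both conditions. The log2 difference was 0.28 in CCNY-WT (0.06 to 0.50; adjusted p = 0.725) and 0.21 in CCNY-shRNA (-0.01 to 0.43; adjusted p = 0.288). Penk was the only one of the 9 genes with an unadjusted limma p under 0.05 in CCNY-WT, and 6.83% of all genes tested had one.

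Pdyn, the dynorphin precursor, was at FPKM 0.446 and 1.02 in the controls, 0.673 and 0.876 with overexpression, and 1.36 and 1.29 with knockdown. Both CCNY-shRNA libraries lay above the other 4, the reverse of Crh, and the EGFP libraries differed more from each other than the EGFP and CCNY-WT means did. The mean in CCNY-shRNA was 1.81 times that in EGFP. The floored log2 difference was 0.39 (-0.08 to 0.86; limma adjusted p = 0.349) and the unfloored one 0.97, since EGFP replicate 1 lies under the floor. The smallest fragment numbers were 6 and 15 in the controls, 12 and 11 with overexpression, and 15 and 20 with knockdown. The depth-scaled ratio of CCNY-shRNA to EGFP was 1.77, and that of CCNY-WT to EGFP was 1.01. Pdyn reached an FPKM of 1 in only 3 libraries, both of CCNY-shRNA and EGFP replicate 2. It thus passed the filter only through the group where it was high. Its limma intervals and p-values, here and below, and its place in the counts below serve as description only.

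Vgf, a secreted precursor induced by neurotrophins and activity, was at FPKM 510 and 536 in the controls, 537 and 542 with overexpression, and 467 and 480 with knockdown. The 3 groups did not overlap, in the same order as for Crh but over a much smaller range. The log2 difference from EGFP was 0.05 in CCNY-WT (-0.09 to 0.18; adjusted p = 0.911) and -0.14 in CCNY-shRNA (-0.28 to -0.01; adjusted p = 0.239). Scg2, secretogranin II, the source of secretoneurin, was at 373 and 401 in the controls, 362 and 354 with overexpression, and 385 and 367 with knockdown. Its CCNY-WT libraries lay below all others, with log2 differences of -0.11 in CCNY-WT (-0.25 to 0.03; adjusted p = 0.779) and -0.04 in CCNY-shRNA (-0.18 to 0.10; adjusted p = 0.768). Its CCNY-shRNA and EGFP libraries overlapped. Neither of these genes, whose promoter windows hold the CREB element, passed the test.

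**Figure D3:**
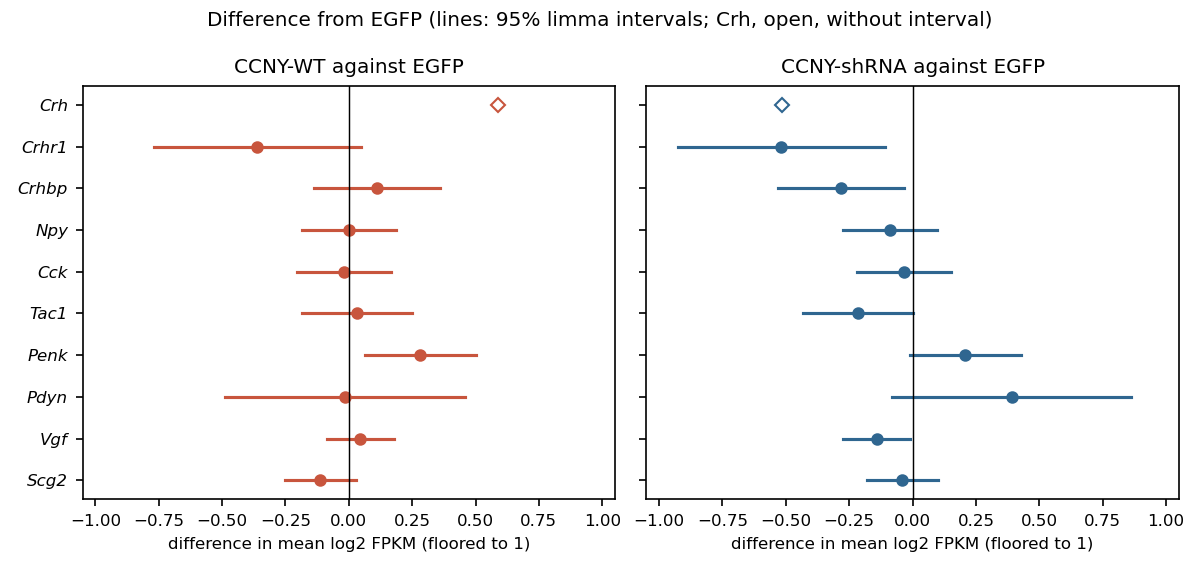
Difference of the mean log2 FPKM (floored to 1) of each gene from EGFP, in CCNY-WT (left) and CCNY-shRNA (right); filled points with lines are limma estimates with 95% intervals, and the open diamond is Crh, shown with no interval. Crh lies at 0.59 and -0.51, Crhr1 lies to the left in both panels, Penk to the right in both, and Pdyn to the right in CCNY-shRNA alone.

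Counted over the 9 genes other than Crh, none passed the limma test at an adjusted p of 0.05 in CCNY-WT, where 0.00982% of all genes tested did, a single gene, nor in CCNY-shRNA, where 0.746% did. In CCNY-shRNA, 3 of the 9 had an unadjusted p under 0.05, Crhr1, Crhbp and Vgf, each lower than in EGFP, beside 18.6% of all genes. The libraries of CCNY-WT and EGFP were apart for 4 of the 9, Penk and Vgf being higher and Crhr1 and Scg2 lower, beside 39.5% of all genes. Those of CCNY-shRNA and EGFP were apart for 6 of the 9, Penk and Pdyn being higher and Crhr1, Crhbp, Tac1 and Vgf lower, beside 48.4% of all genes. With 2 libraries a group, libraries that lie apart are thus common in this table.

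A size threshold from the study, a log2 difference of at least 0.3 for overexpression and 0.33 for knockdown, was also applied, without the cuffdiff step that its methods name. Among the 9 genes, Crhr1 was past it in CCNY-WT, on the lower side, beside 8.35% of all genes tested, and Pdyn and Crhr1 were past it in CCNY-shRNA, on opposite sides, beside 13.1%. Crh was past it in both, by the rule. The median log2 difference of the 9 genes was 0.00 in CCNY-WT and -0.09 in CCNY-shRNA, against 0.00 and 0 over all genes tested. In CCNY-shRNA 7 of the 9 were below 0 and 2 above, beside 49.8% of all genes tested below 0. In CCNY-WT 4 were below and 5 above, beside 48.6% below.

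When CCNY-shRNA was set directly against CCNY-WT, the same libraries being used again, none of the 9 genes passed the adjusted threshold, beside 0.216% of all genes. Crhbp, Tac1 and Vgf had an unadjusted p under 0.05, all lower in CCNY-shRNA, beside 12.2% of all genes. The libraries were apart for 6 of the 9, Pdyn and Scg2 being higher and Crhr1, Crhbp, Tac1 and Vgf lower, beside 42.2%. The log2 difference was -0.25 for Tac1 (-0.46 to -0.03; limma adjusted p = 0.361), -0.19 for Vgf (-0.32 to -0.05; adjusted p = 0.277) and 0.41 for Pdyn (-0.07 to 0.88; adjusted p = 0.481). For Crh the CCNY-WT mean was 2.79 times the CCNY-shRNA mean.

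The genes whose floored log2 FPKM followed that of Crh most closely over the 6 libraries, among 2671 genes that spanned at least 0.5, were Ccl7, a chemokine, with a Pearson r of 0.992, Wdr6 with 0.985, Ngfr, the p75 neurotrophin receptor, with 0.983, Tmem38b, an intracellular cation channel, with 0.980, and Smad3, a transcription factor of TGF-beta signalling, with 0.976. The 6 points are 3 groups of 2 libraries, and both CCNY-shRNA values of Crh sit at the floor, so r is a description. Wdr6 showed the order at a high level, with FPKM 131 and 128 in the controls, 171 and 165 with overexpression, and 108 and 103 with knockdown. Ccl7 was as weakly expressed as Crh, at 1.37 and 1.75, 2.48 and 2.93, and 0.668 and 0.472, and Ngfr was at 1.58 and 1.501, 2.35 and 2.34, and 1.0002 and 1.09. Among the members, r with Crh was 0.931 for Vgf, 0.812 for Crhbp, 0.808 for Tac1, 0.508 for Npy, 0.271 for Penk, 0.166 for Crhr1, 0.128 for Cck, -0.444 for Scg2 and -0.844 for Pdyn.

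Genes around the 10 were taken in lists by function. Of 27 genes of CRH receptor signalling and its glucocorticoid counterpart, 26 were tested and none passed the adjusted threshold in either condition, with a median log2 difference of 0.04 in CCNY-WT and 0.02 in CCNY-shRNA. Unadjusted, none was under 0.05 in CCNY-WT, beside 6.83% of all genes tested. In CCNY-shRNA 1 was higher and 1 lower, beside 18.6%. Prkar1b, a regulatory subunit of protein kinase A, was the most abundant, at 339 and 324 in the controls, 351 and 374 with overexpression, and 341 and 367 with knockdown. Gnas, the Gs subunit that couples CRHR1 to adenylyl cyclase, was at 8.46 and 8.80, 9.61 and 11.1, and 7.99 and 7.99, with a log2 difference of 0.26 in CCNY-WT (adjusted p = 0.759). Creb1 was at 9.31 and 4.27 in EGFP, a spread wider than any difference between groups.

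Of 12 listed peptide receptors in the table, 7 were tested. None passed the adjusted threshold, and all 7 had a floored log2 difference under 0 in CCNY-shRNA, with a median of -0.29, against 6 of 7 and -0.15 in CCNY-WT, beside 49.8% and 48.6% of all genes tested. For Oprd1, the delta opioid receptor, this direction came from the floor, since its FPKM was 0.546 and 1.25 in the controls and 1.001 and 1.07 with knockdown. Cckbr, the brain cholecystokinin receptor, was at 9.07 and 9.17 in the controls, 8.85 and 8.25 with overexpression, and 6.79 and 6.90 with knockdown. Its log2 difference in CCNY-shRNA was -0.41 (limma adjusted p = 0.133), while its ligand Cck overlapped between groups. Oprm1, the mu opioid receptor, was at 3.63 and 2.39, 2.74 and 2.09, and 1.93 and 1.52, with -0.78 in CCNY-shRNA (adjusted p = 0.179). Npy1r, the most abundant of the 7, was at 21.5 and 22.9, 20.6 and 16.8, and 20.3 and 19.8. Npy2r was above 0 in CCNY-shRNA replicate 1 alone, at 0.214. Cckar was listed at 0 throughout.

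Of 45 other neuropeptide precursors in the table, 12 were at 0 in all libraries and 15 were tested. None passed the adjusted threshold in either condition. In CCNY-shRNA 11 of the 15 had a floored log2 difference under 0, beside 49.8% of all genes, with a median of -0.39. For Gnrh1, 1 of the 11, this direction came from the floor, since its FPKM was 0 and 1.12 in the controls and 0.754 and 1.06 with knockdown. There 7 had an unadjusted limma p under 0.05, all lower, beside 18.6% of all genes. In CCNY-WT the median was -0.05 and 1 had such a p, beside 6.83% of all genes. Sst, the somatostatin precursor and the most abundant peptide transcript of those listed, was at 1256 and 1311 in the controls, 1228 and 1239 with overexpression, and 1043 and 1158 with knockdown, a log2 difference of -0.22 in CCNY-shRNA (adjusted p = 0.181). Vip, a peptide of disinhibitory interneurons, was at 30.6 and 25.4, 28.9 and 31.0, and 18.6 and 24.4, with -0.39 (adjusted p = 0.197). Nmb, the neuromedin B precursor, was at 11.9 and 10.8, 8.20 and 7.34, and 3.96 and 9.01, with -0.93 (adjusted p = 0.190), and its CCNY-shRNA libraries differed by more than the groups did. Nppa, the atrial natriuretic peptide precursor, was lower in both conditions, at 3.78 and 4.44, 2.25 and 2.03, and 1.32 and 3.27, with no adjusted p under 0.05.

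**Figure D4:**
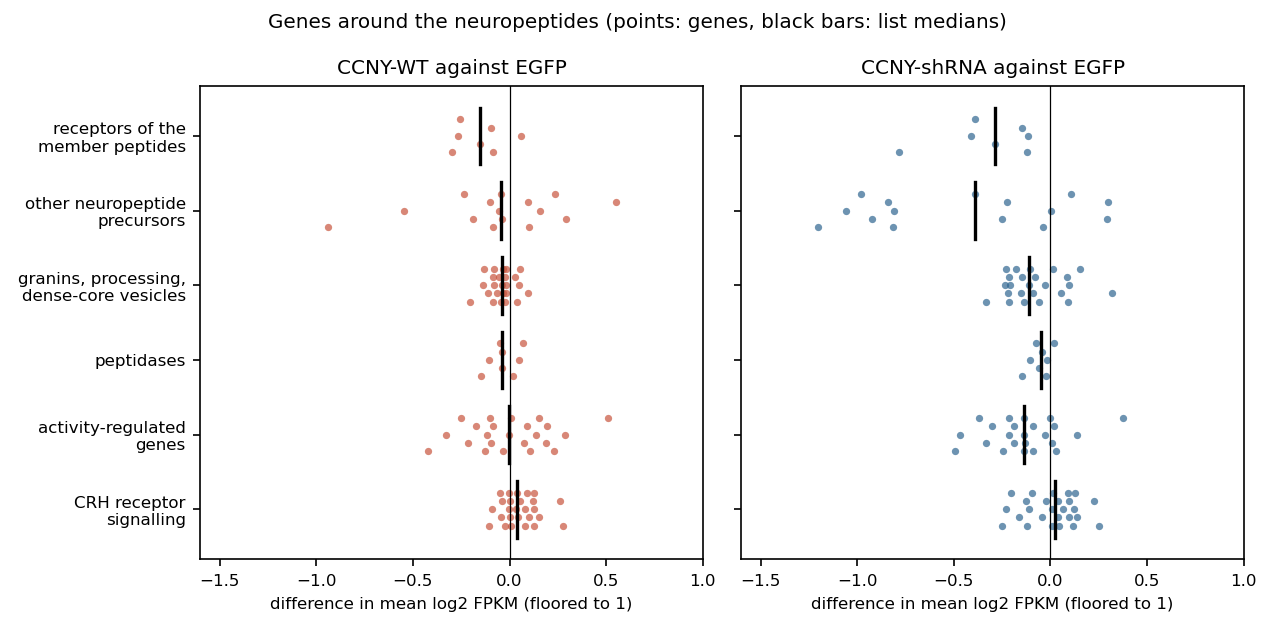
Difference of the mean log2 FPKM (floored to 1) from EGFP for the genes of 6 lists around the neuropeptides, in CCNY-WT (left) and CCNY-shRNA (right); points are genes and black bars list medians. The median of the other precursors lies at -0.05 and -0.39, that of the receptors at -0.15 and -0.29, and that of CRH receptor signalling at 0.04 and 0.02.

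The machinery that sorts, cuts and releases peptides was represented by 24 tested genes. None passed the adjusted threshold, and the median log2 difference was -0.04 in CCNY-WT and -0.11 in CCNY-shRNA, and 6 genes, all lower in CCNY-shRNA, had an unadjusted p under 0.05 there, beside 18.6% of all genes. Cpe, the carboxypeptidase that trims precursors, was the most abundant at 727 and 816 in the controls, 856 and 748 with overexpression, and 1026 and 655 with knockdown, the CCNY-shRNA libraries lying on either side of all others. Cpd, a related carboxypeptidase, was at 58.3 and 58.9, 56.0 and 54.5, and 49.4 and 43.8, with a log2 difference of -0.33 in CCNY-shRNA (limma adjusted p = 0.0803). Syt4, a synaptotagmin of dense-core vesicles, was at 186 and 197, 184 and 177, and 164 and 162, with -0.23 (adjusted p = 0.0902). Rab27b, a small GTPase of vesicle docking, lay the other way, at 9.37 and 11.65, 11.3 and 10.1, and 11.2 and 15.2, with 0.32 (adjusted p = 0.376). The 8 tested peptidases that degrade released peptides had medians of -0.04 in CCNY-WT and -0.05 in CCNY-shRNA. None had an unadjusted p under 0.05, beside 6.83% of all genes in CCNY-WT and 18.6% in CCNY-shRNA. Ece1, an endothelin-converting enzyme, had a log2 difference of -0.15 in CCNY-shRNA.

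Since Vgf, Scg2 and several precursors are induced by activity, 23 tested activity-regulated genes were set beside them. None passed the adjusted threshold, with medians of 0.00 in CCNY-WT and -0.14 in CCNY-shRNA. In CCNY-shRNA 18 lay below EGFP, beside 49.8% of all genes, and 5 had an unadjusted limma p under 0.05, all lower, beside 18.6%. In CCNY-WT 4 had such a p, beside 6.83% of all genes. Of these, 1 was higher, Fosb, and 3 were lower, Egr1 (log2 -0.42), Nr4a1 (-0.33) and Ptgs2 (-0.25). Ptgs2, the inducible cyclooxygenase, was at 22.4 and 20.6 in the controls, 19.4 and 16.8 with overexpression, and 16.2 and 14.8 with knockdown, with -0.47 in CCNY-shRNA (adjusted p = 0.0853). Nr4a1, an immediate early nuclear receptor, was at 14.2 and 14.7, 12.3 and 10.8, and 11.2 and 9.46, with -0.49 (adjusted p = 0.105). Fosb, an immediate early factor, was at 4.53 and 5.26 in CCNY-WT beside 3.55 and 3.30 in EGFP (log2 0.51; adjusted p = 0.725).

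The libraries were neuronal by their markers, with a summed FPKM of 5883 to 6187 for 9 neuron markers. The summed level of 19 GABAergic interneuron markers was 2390 and 2472 in the controls, 2404 and 2406 with overexpression, and 2021 and 2140 with knockdown, with Sst as the highest gene. Of the 18 tested, 16 lay below EGFP in CCNY-shRNA, with a median log2 difference of -0.25, beside 49.8% of all genes below. Other lists also lay below in CCNY-shRNA, 7 of 9 astrocyte markers with a median of -0.20 and 5 of 7 excitatory neuron markers with a median of -0.18. Among those that passed the limma test was Gad2, a GABA-synthesizing enzyme, which fell from 170 and 173 to 129 and 129 (log2 -0.41, adjusted p = 0.0226). Gad2 lost the threshold when any 1 library was left out, with adjusted p from 0.0767 to 0.316 and log2 differences from -0.42 to -0.40, and also with no filter on low values (adjusted p = 0.0958), without the trend (0.154) and with only the 4 libraries compared (0.139). Gad1, the other GABA-synthesizing enzyme, was at 189 and 188 in the controls and 183 and 187 with knockdown. The summed interneuron level was thus lower in CCNY-shRNA, as were Crh, Crhbp and Tac1, and its part in their differences was not tested. Sst and Vip belong to the marker list themselves. The interneuron peptides Npy and Cck overlapped between the same groups.

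Astrocyte markers summed to 540 and 580 in the controls, 573 and 567 with overexpression, and 472 and 545 with knockdown, and none of the 9 in the table passed the test. Microglial markers were near 0, with a sum of at most 0.607 and Aif1 and Cx3cr1 at 0 in all libraries, and the defining oligodendrocyte gene Sox10 and endothelial gene Cldn5 were also at 0. The part of astrocytes in the differences above was not tested. How many reads each library had is unknown, as FPKM values alone were given. Relative to EGFP replicate 1 it was 0.818 to 1.33 by the steps of low FPKM values, and 9955 to 10002 genes per library reached an FPKM of 1.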

How the data were processed

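Poly-A RNA of cultured rat hippocampal neurons was sequenced as 150-bp paired-end reads from a kit that the labels call stranded and the study's methods name without a strand. The authors aligned the reads to rn4 with TopHat 2 and deposited 1 FPKM value per gene and library, made with Cufflinks. The submitters' processing notes list SAMtools 0.1.19, Bowtie2 2.1.0, TopHat2 2.0, Cufflinks 2.2.1 and R 3.1.0. Which annotation was used, and whether libraries were scaled to each other, is not given in the sources used here, and the labels name no batch. Because FPKM values are not counts, log2 of FPKM floored to 1 (the study's own floor) was fitted with limma 3.58.1 in R 4.3.3 (eBayes with trend) over all 6 libraries, on genes that reached an FPKM of 1 in at least 2 libraries, and p-values were adjusted by Benjamini-Hochberg over all 10188 genes. Differences are on this floored scale and understate those of low genes. Relative depth came from 1243 genes under an FPKM of 0.5, of which 98.3% gave whole fragment numbers (tolerance 0.03). The Poisson intervals of fragment numbers take the smallest numbers as the true ones. Fragment numbers are known only up to a common factor, so no count test was run. The members and lists were chosen with earlier results of these data known. Named were the 10 members, Ccny and the 5 genes most like Crh. From each list the genes past the adjusted threshold were named, otherwise examples from the 3 most abundant and the 3 with the largest difference. The latter were taken among genes that reached an FPKM of 1 in every library. Oprd1, Gad1, Cartpt, Gast, Gnrh1, Egr1 and genes under the filter were named after their values were seen. A result that the rule would name is not reported here. Alternatives covered the pseudocount, the filter, the scaling, the spread estimate, a replicate block and leaving out each library.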

Additional observations from a re-analysis of the deposited data

How the results depend on the processing

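Over 16 alternative settings none of the 9 tested members passed an adjusted p of 0.05 in any comparison, with adjusted p between 0.167 and 0.468 for Crhr1, 0.125 and 0.615 for Crhbp, 0.127 and 0.565 for Pdyn and 0.116 and 0.636 for Vgf in CCNY-shRNA, and between 0.555 and 1 for Penk in CCNY-WT. Requiring an FPKM of at least 5 leaves Crh and Pdyn without a value. Of 477 values of single members under an alternative, 451 kept their direction and side of the threshold (without a test, moved by less than the spread between replicates), 10 moved further and 16 changed sign, the last for Npy, Cck, Tac1, Penk, Pdyn or Scg2. Sizes varied more: Crhr1 in CCNY-WT ran from -0.56 to -0.16, and in CCNY-shRNA Crhbp from -0.44 to -0.12, Tac1 from -0.31 to -0.12, Penk from 0.11 to 0.31 and Pdyn from 0.35 to 0.97. The Pdyn difference in CCNY-WT was 0.051 with log2(FPKM + 1), 0.15 with log2(FPKM + 0.1) and 0.19 without the floor (chosen after seeing the data), and that of Npy in CCNY-WT was -0.019 after quantile normalization. With 1 library left out, the CCNY-WT differences ran from -0.080 to 0.081 for Npy, -0.11 to 0.072 for Cck and -0.063 to 0.13 for Tac1. Those in CCNY-shRNA ran from -0.095 to 0.027 for Cck and -0.094 to 0.011 for Scg2, and those of CCNY-shRNA against CCNY-WT from -0.11 to 0.078 for Cck and -0.17 to 0.028 for Penk.

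For Crh the difference in CCNY-WT was 0.37 with log2(FPKM + 1), and that in CCNY-shRNA was -0.82 with log2(FPKM + 0.1) and -0.90 without the floor. At a size threshold of 1 on the log2 scale, 0 members were past it in either condition and direction. With 1 library left out, the difference of Crh, which was chosen for it, ran from 0.49 to 0.68 in CCNY-WT and from -0.61 to -0.42 in CCNY-shRNA. Others reached the study's threshold in some of these fits. They were Penk (0.25 to 0.32) and Crhr1 (-0.56 to -0.16) in CCNY-WT. In CCNY-shRNA they were Crhr1 (-0.72 to -0.32), Crhbp (-0.44 to -0.12) and Pdyn (0.35 to 0.43). With all libraries, 8.35% and 13.1% of all genes tested were past it. Of the 5 genes most like Crh, 3 were shared with log2(FPKM + 1).

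Same-numbered libraries showed little sign of pairing. Their deviations correlated at 0.0849 for EGFP and CCNY-WT, -0.0197 for EGFP and CCNY-shRNA and 0.0809 for CCNY-WT and CCNY-shRNA. Low correlations cannot exclude a shared culture, and the labels name none. With a replicate block, 0 members were called in each comparison, and over all genes the calls in CCNY-shRNA were 8 higher and 31 lower, against 17 and 59 without it. These all-gene counts were 1 and 1 without the filter, 30 and 78 at a mean FPKM of at least 1, 47 and 107 at an FPKM of at least 5, 0 and 1 without the trend or with only 4 libraries, and 0 to 1 and 1 to 6 with 1 library left out. Scaling to one upper quartile gave 21 and 42. In CCNY-WT, 3 genes were called with log2(FPKM + 1) or either stricter filter and 0 to 1 with 1 library left out, against 1, and for CCNY-shRNA against CCNY-WT the counts ran from 0 to 2 higher and from 1 to 38 lower. Depth limits Crh and Pdyn most, with at most 20 fragments a library by the smallest numbers.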
